A study of Sus scrofa with 74 samples.

Results

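The comparison was between pigs whose back muscle held much and pigs whose back muscle held little transcript of 3 adipocyte genes. Of the 74 F2 pigs profiled, 48 entered it, 24 as marker-high and 24 as marker-low animals, and 26 were in neither group. The pigs descend from Duroc and Pietrain grandparents, and RNA from the back muscle M. longissimus dorsi, taken at slaughter when the pigs weighed 110 kg on average, was hybridised with 1 Affymetrix Porcine Genome Array per animal. By the study's methods every animal was free of the RYR1 mutation that causes malignant hyperthermia, and many animals were full sibs. The sexes were equally represented among the 74 animals, which does not give their numbers in the 2 groups. No treatment was given, and the labels carry only a running number per animal, with no sex, family, age, drip loss or measure of fat. The p-values below therefore treat siblings as independent and measure the spread between these animals.

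Fat cells lie in strands between the fibres and fibre bundles of skeletal muscle, where they form the intramuscular fat seen as marbling. In the pig the adipocyte is the main site where fatty acids are built from glucose and acetate, with fatty acid synthase and stearoyl-CoA desaturase as late steps, and diacylglycerol acyltransferases join the products into the triglyceride of the lipid droplet. The nuclear receptor PPARG drives the formation of fat cells and keeps their lipid genes active. Muscle fibres mostly burn fatty acids in their mitochondria.

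The 2 groups were cut from a score, the mean z value of ADIPOQ, the fat hormone adiponectin, FABP4, the fatty acid carrier of adipocytes, and SCD, stearoyl-CoA desaturase, each read by its probe set of the highest median. A probe set is the group of short oligonucleotides that reads 1 transcript on the array. Label numbers fall into 2 blocks, 1 to 33 with 24 animals and 60 to 114 with 50, and the 8 highest and 8 lowest animals of the first block and the 16 highest and 16 lowest of the second were taken. The sources used here do not say what the numbers stand for. At the upper boundary the lowest marker-high scores were 0.269 and 0.577 in the lower and the higher block of labels, against 0.225 and 0.531 for the highest animals left out, and at the lower boundary the highest marker-low scores were -0.624 and -0.392 against -0.514 and -0.365.

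The 3 genes chose the animals, so their levels are a description. ADIPOQ ran from 8.85 to 12.35 with a median of 10.57 on the log2 intensity scale in the marker-high animals and from 6.89 to 9.14 with a median of 8.19 in the marker-low animals. FABP4 had medians of 12.96 and 11.42, with ranges of 11.93 to 14.26 and 9.65 to 12.41. SCD had the widest spread, with a median of 13.18 and a range of 9.37 to 14.78 in the marker-high and a median of 9.51 and a range of 8.16 to 11.66 in the marker-low animals. The groups overlapped in each single gene, and 1 marker-high animal had SCD below the median of the marker-low animals. Over the 74 animals ADIPOQ and FABP4 varied more closely together (r = 0.863) than either did with SCD (r = 0.625 and 0.571).

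**Figure D1:**
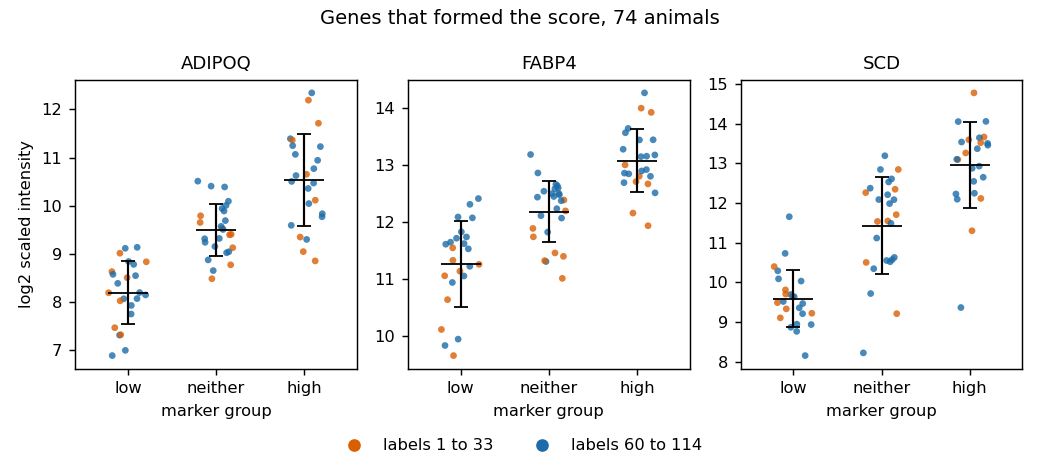
Log2 scaled intensity of the 3 genes of the score in each animal, by marker group; colours give the block of label numbers, long bars the mean and short bars the SD. The groups were formed from these values, and SCD spans the widest range, from 8.16 to 14.78.

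Marker genes of skeletal muscle were high in every animal of both groups. MYLPF, the fast regulatory myosin light chain, lay between 15.22 and 16.41 on the log2 intensity scale and TNNT3, fast troponin T, between 15.09 and 16.49, so the tissue on the labels was borne out. In a whole muscle sample, more fat cells and more transcript per fat cell cannot be told apart. The trimmed mean of the arrays before scaling (120 ± 33.6 in the marker-high and 113 ± 26.4 in the marker-low animals, SD, n = 24 each) and the 3'-to-5' differences of the actin and GAPDH controls differed by less than the spread within the groups (two-sided permutation test within blocks, adjusted p = 0.677, 0.766 and 0.965). Of the 74 arrays 3 had a mean correlation under 0.89 with the rest of their block, those of the marker-low animals 23 and 26 and of the marker-high animal 114.

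EIF1AY, a gene of the Y chromosome, was unevenly spread over the groups. Its log2 intensity fell into 2 separate levels, at most 5.37 in 39 animals and at least 7.79 in 35, and the higher level was found in 17 of 24 marker-high, 12 of 26 intermediate and 6 of 24 marker-low animals. The difference of the group means was 2.73 ± 0.94 (SE), with a p of 0.0074 in a permutation test within blocks and an adjusted p of 0.122 in the fit of all probe sets. The labels give no sex, and the animals were not grouped by this gene. The part of sex in the differences between the groups was not tested. The permutation test and a fit with the level of EIF1AY as a covariate, used for the counts below, were chosen after seeing the data.

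Between the groups 759 of the 11996 probe sets tested (6.33%) differed at an adjusted p under 0.05 (limma with the block as a term). Of these 438 probe sets, 3.65% of those tested, were higher in the marker-high animals and 321, or 2.68%, were lower, so 57.7% of the differing probe sets were higher. Without scaling of the arrays the numbers were 311 and 53, and 85.4% of the differing probe sets were higher. After quantile normalization they were 416 and 439, and 48.7% were higher, so the excess of higher probe sets depended on the normalization. The 438 higher ones moved further than the 321 lower ones. Their median log2 difference was 0.53 and 61 probe sets differed at least 2-fold, against -0.34 and 9 probe sets on the lower side. With EIF1AY as a covariate 205 probe sets were higher and 82 lower, 202 and 82 of them among the 438 and 321. Without the 3 arrays that stood apart there were 439 and 265.

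Only 4 probe sets, 0.0333% of those tested, separated every marker-high from every marker-low animal, and all 4 were higher. They were DGAT2, MGST1, ALDOC and Ssc.21113.1.A1_at, which has no gene name in the annotation. No probe set separated the groups in the opposite direction.

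Most measured genes of fatty acid synthesis were higher in the marker-high animals. Of the 7 genes of the list that were measured, 6 rose and none fell, beside 3.65% higher and 2.68% lower among all probe sets tested. The median log2 difference was 0.76, beside 0.0066 over all probe sets tested. FASN, the fatty acid synthase, ran from 9.16 to 14.02 with a median of 12.06 in the marker-high and from 7.80 to 10.68 with a median of 9.26 in the marker-low animals. It rose by 2.83 ± 0.25 on the log2 scale (SE, n = 24 against 24), a 7.11-fold difference with an adjusted p of 9.7e-12, and 22 of 24 marker-high animals lay above every marker-low animal. Of its 4 probe sets 3 were kept by the filter on low values, and the other 2 of these passed too, at 1.41 and 1.65.

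ELOVL6, the elongase that lengthens palmitate before desaturation, had medians of 12.06 and 9.27 and rose by 2.59 ± 0.23 (adjusted p = 1.1e-11). Of the marker-low animals 23 of 24 were below every marker-high animal. The other 2 kept probe sets of ELOVL6 passed too, with smaller differences of 1.80 and 1.98. The 4 other genes that rose supply citrate or NADPH for the synthesis. They were IDH1, the cytosolic isocitrate dehydrogenase (0.90 ± 0.11), PGD of the pentose phosphate pathway (0.76 ± 0.17), the mitochondrial citrate carrier SLC25A1 (0.70 ± 0.16) and malic enzyme ME1 (0.33 ± 0.09), at adjusted p of 9.9e-08, 0.0042, 0.0040 and 0.020. ACSS2, which makes acetyl-CoA from acetate, stood at -0.01 ± 0.08 with an adjusted p of 0.966. With EIF1AY as a covariate 5 of the 7 passed, and ME1 no longer did (adjusted p = 0.064). When SCD, itself an enzyme of this pathway, was left out of the score and the groups formed again, 3 of the 7 passed and the median was 0.63.

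The genes of triglyceride synthesis did not follow as a list. DGAT2, the acyltransferase that completes triglyceride, ran from 9.36 to 12.78 with a median of 9.99 in the marker-high animals and from 6.59 to 8.94 with a median of 8.05 in the marker-low animals. All 24 marker-high animals were above all 24 marker-low animals, at a difference of 2.38 ± 0.21 and an adjusted p of 9.7e-12. The other 7 measured genes did not pass the test, and the median of the list was -0.14. DGAT1, the second enzyme of this step, stood at 0.24 ± 0.13, the glycerol-phosphate acyltransferase GPAM at -0.15 ± 0.15 and the phosphatidate phosphatase LPIN1 at -0.23 ± 0.20.

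Lipid droplet and lipolysis genes gave the same picture of 1 gene apart from the rest. LIPE, hormone-sensitive lipase, had a median of 9.83 and a range of 8.47 to 11.47 in the marker-high animals and a median of 7.77 and a range of 4.56 to 9.25 in the marker-low animals. It rose by 2.18 ± 0.28 (adjusted p = 2.3e-07), and 17 animals of either group lay outside the range of the other. The other 8 measured genes did not pass, among them the triglyceride lipase PNPLA2 (-0.02 ± 0.12), the droplet coat protein PLIN2 (-0.06 ± 0.20) and the monoglyceride lipase MGLL (-0.05 ± 0.12). HILPDA, also of this list, stood at 0.28 ± 0.18, but its other probe set passed, at 0.40. The median of the 9 genes was -0.02.

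Of the 7 measured genes of fatty acid uptake, LPL rose and no other passed. LPL, the lipoprotein lipase that frees fatty acids from circulating triglyceride, had medians of 12.72 and 12.01 and rose by 0.88 ± 0.15 (adjusted p = 6.1e-05), with its other probe set at 0.55 and also past the test. FABP3, the fatty acid carrier of muscle fibres, stood at -0.32 ± 0.12 with an adjusted p of 0.088.

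Of the 6 measured adipogenic transcription factors PPARG alone passed. It ran from 7.31 to 10.54 with a median of 8.15 in the marker-high and from 2.31 to 7.78 with a median of 6.46 in the marker-low animals, and 20 of 24 marker-high animals were above every marker-low animal. Its difference was 2.54 ± 0.33 (adjusted p = 1.6e-07). CEBPB, CEBPD, KLF15, NR1H3 and RORA lay between -0.18 and 0.10, none past the test, and the median of the list was -0.03.

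**Figure D2:**
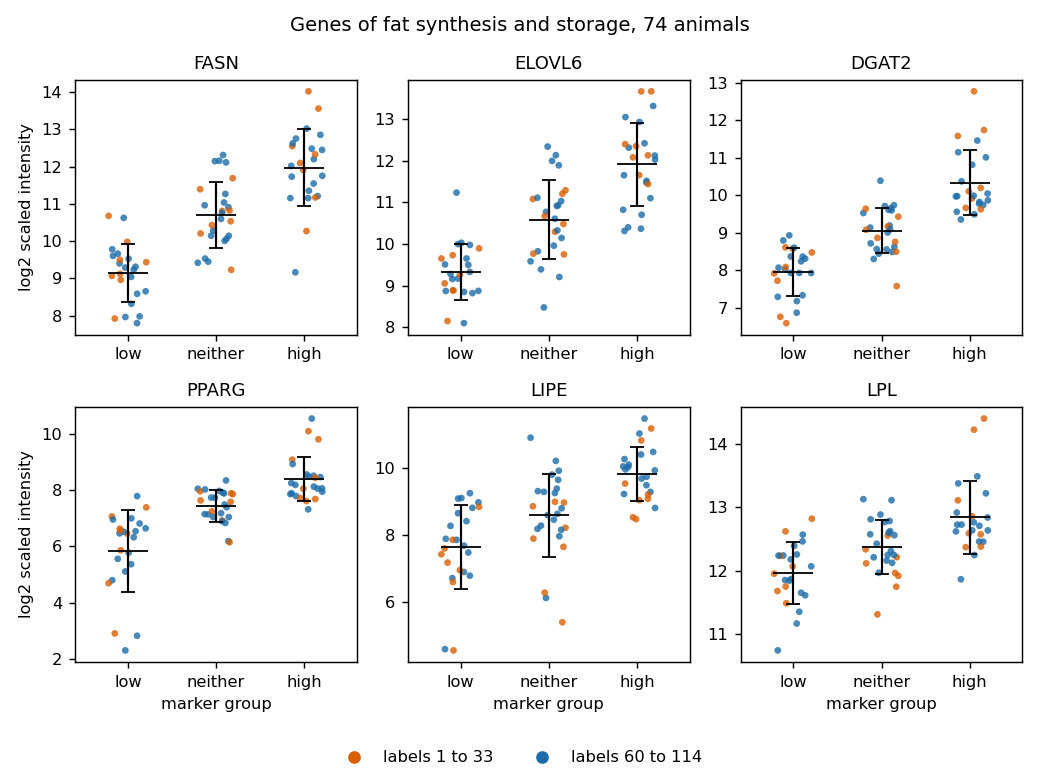
Log2 scaled intensity of 6 genes of fat synthesis and storage in each of the 74 animals, by marker group; colours give the block of label numbers, long bars the mean and short bars the SD. In DGAT2 the lowest marker-high animal (9.36) lies above the highest marker-low animal (8.94), and in the other 5 genes the groups overlap.

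Other adipocyte markers rose in part, beside 3.65% higher among all probe sets tested. Of the 7 measured genes of the list that were not in the score, 4 rose and none fell, with a median of 1.48. These were LIPE, given above, CIDEA, a droplet protein of fat cells (1.62 ± 0.25), the retinol carrier RBP4 (1.57 ± 0.35), and PCK1, which makes glycerol phosphate for triglyceride in fat cells (1.48 ± 0.32), at adjusted p of 7.2e-06, 0.0032 and 0.0024. CFD, the adipocyte protease adipsin, stood at 0.19 ± 0.09, the glycerol phosphate dehydrogenase GPD1 at 0.10 ± 0.10 and the β-adrenergic receptor ADRB3 at -0.01 ± 0.16. Skeletal muscle also expresses GPD1. LEP, the fat hormone leptin, was below the filter on low values, and in the fit of all 23996 probe sets, where 1.51% were higher, it rose by 1.07 ± 0.27 (adjusted p = 0.024). Its marker-low median of 6.51 lay below the level of the filter, so the size of this difference is not firm. Of the 27 genes of all lists that were below the filter, LEP alone passed in that fit.

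Over the 6 lipid lists together, 42 of 72 genes were measured, 13 rose and none fell, beside 3.65% higher and 2.68% lower among all probe sets tested. The other 29 did not pass. Some genes that were not measured had a probe set below the filter on low values. They were ACACA, FADS1, FADS2, SREBF1, CEBPA, RXRA, SLC27A1 and LEP, and only LEP passed in the fit without the filter.

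Outside these lists SGK2, a kinase of the serum and glucocorticoid-regulated family, was higher in the marker-high animals. It ran from 7.11 to 10.50 with a median of 8.38 in the marker-high animals and from 2.17 to 8.37 with a median of 5.43 in the marker-low animals, a difference of 3.02 ± 0.33 (adjusted p = 2.3e-09). Of the marker-low animals 21 of 24 were below every marker-high animal. The marker-low medians of SGK2, PPARG, CIDEA and SFRP1 (5.43, 6.46, 6.89 and 7.10) lay below the level of the filter on low values, an intensity of 139 before log2, where a signal was not shown to be above background, so the sizes of these 4 differences are not firm. MGST1, a membrane-bound glutathione transferase, had a range of 9.48 to 11.96 against 7.32 to 9.15 and rose by 2.04 ± 0.15 (adjusted p = 2.1e-14). ALDOC, the aldolase best known from brain, had a range of 9.18 to 12.14 against 7.43 to 9.08 and rose by 1.87 ± 0.17 (adjusted p = 2.0e-11). In both genes the groups did not overlap.

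The remaining genes among the 12 largest were SFRP1, a secreted Wnt antagonist (2.002 ± 0.18, other probe set 2.48), the retinol saturase RETSAT (1.93 ± 0.17), the apolipoprotein APOE (1.79 ± 0.35) and the cysteine dioxygenase CDO1 (1.68 ± 0.19). Their adjusted p were 9.7e-12, 3.3e-12, 7.1e-04 and 7.3e-09. All 12 genes kept an adjusted p under 0.05 with EIF1AY as a covariate, where their differences ran from 1.63 to 2.98.

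Of the 7 measured genes of the cholesterol synthesis list 1 rose, the sterol desaturase SC5D (1.01 ± 0.15, adjusted p = 8.9e-06), and the list median was 0.20. CYP51, ACAT2 and MSMO1, also of this pathway but outside the list, were chosen after their values were seen. They were higher by 0.68 ± 0.14, 0.67 ± 0.14 and 0.49 ± 0.12 (adjusted p = 0.0013, 0.0014 and 0.011). With EIF1AY as a covariate MSMO1 did not pass (adjusted p = 0.058). The 4 measured genes of insulin signalling and glucose uptake did not pass, with the insulin-dependent glucose carrier SLC2A4 at -0.23 ± 0.13.

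Of 21 measured genes of the connective tissue matrix 4 rose by small amounts, 17 did not pass and none fell, and the median was 0.34. Among all probe sets tested 3.65% were higher. SPARC, a collagen-binding matrix protein, had medians of 14.81 and 14.54 and rose by 0.29 ± 0.06 (adjusted p = 0.0018), with 12 of 24 marker-high animals above every marker-low animal. The fibrillar collagen COL5A1 (0.41 ± 0.12), the basement membrane genes LAMB1 (0.41 ± 0.12) and COL15A1 (0.34 ± 0.10) had adjusted p of 0.031, 0.032 and 0.036. The other kept probe sets of COL5A1 and LAMB1 stood at 0.14 and 0.12 and did not pass. With EIF1AY as a covariate SPARC alone of the 4 passed, and with single animals left out COL5A1 (animal 11 or 20), LAMB1 (28 or 106) and COL15A1 (any of 7) reached adjusted p of 0.051 to 0.059.

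Of 8 measured markers of fibroblasts and preadipocytes 3 rose, beside 3.65% higher among all probe sets tested. All 8 differences were above 0 and the median was 0.36. The surface protease FAP rose by 0.62 ± 0.15, the receptor-like PDGFRL by 0.51 ± 0.12 and the filament protein VIM by 0.44 ± 0.10, at adjusted p of 0.0088, 0.0047 and 0.0066. The summed scaled intensity of the 8 genes ran from 29570 to 76057 in the marker-high and from 23560 to 55201 in the marker-low animals. The other probe set of PDGFRL stood at 0.23 and did not pass, and VIM did not pass with EIF1AY as a covariate (adjusted p = 0.058).

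Few markers of other cell types passed the test. None of 10 endothelial, 7 smooth muscle and pericyte, 11 leukocyte and 2 erythroid genes passed, and of 3 nerve and Schwann cell genes 1 did. That gene was S100B, which fat cells also express (0.40 ± 0.12, adjusted p = 0.030). It did not pass with EIF1AY as a covariate or without scaling of the arrays (adjusted p = 0.106 in both), nor without animal 106 (0.051). Summed scaled intensities overlapped widely, at 4076 to 9159 against 3231 to 7808 for endothelium, 11194 to 35844 against 11472 to 27617 for smooth muscle, 5580 to 16688 against 3783 to 18432 for leukocytes, 336 to 7317 against 276 to 1445 for erythroid genes and 624 to 1707 against 616 to 1574 for nerve. No marker was at 0 in a group, and the part of these cells in the results was not tested.

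**Figure D3:**
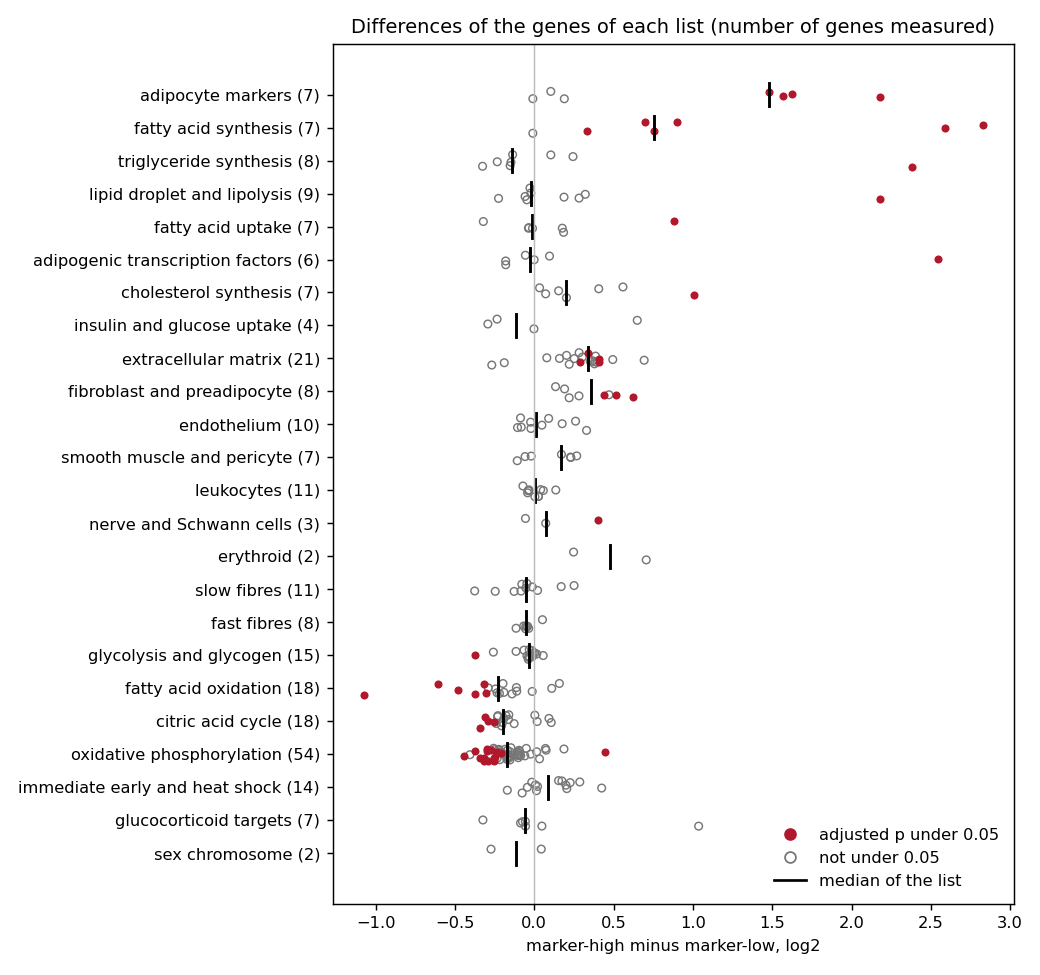
Log2 difference between marker-high and marker-low animals for every measured gene of the 24 lists; filled points passed the test at an adjusted p under 0.05, open points did not, and vertical bars are list medians. The medians run from -0.23 for fatty acid oxidation to 1.48 for adipocyte markers.

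Of 18 measured genes of fatty acid oxidation 6 were lower in the marker-high animals, 12 did not pass and none rose. Among all probe sets tested 2.68% were lower. Of the 18 differences 16 were below 0 and the median was -0.23. CPT1B, the carnitine palmitoyltransferase that lets fatty acids into muscle mitochondria, ran from 8.26 to 10.34 with a median of 9.36 in the marker-high animals and from 8.43 to 11.04 with a median of 9.88 in the marker-low animals. It fell by 0.61 ± 0.14 on the log2 scale (adjusted p = 0.0038), and the groups overlapped over most of the range. ACADVL, the very long chain acyl-CoA dehydrogenase, had medians of 11.85 and 12.23 and fell by 0.48 ± 0.08 (adjusted p = 8.3e-05), with 11 marker-high animals below every marker-low animal.

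UCP3, the uncoupling protein of muscle mitochondria, had medians of 9.96 and 11.03 and fell by 1.07 ± 0.25 (adjusted p = 0.0046), and its other probe set also passed, at -1.03. The other 3 were the electron carrier ETFDH (-0.37 ± 0.09), the short chain dehydrogenase ACADS (-0.32 ± 0.08) and the trifunctional protein subunit HADHA (-0.30 ± 0.08), at adjusted p of 0.0055, 0.011 and 0.011.

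Beside 2.68% lower among all probe sets tested, 4 of 18 measured genes of the citric acid cycle fell and none rose, with a median of -0.20. They were the succinate dehydrogenase subunits SDHA (-0.34 ± 0.09) and SDHB (-0.25 ± 0.08), the mitochondrial isocitrate dehydrogenase IDH2 (-0.31 ± 0.08) and DLST of the oxoglutarate dehydrogenase complex (-0.29 ± 0.08). The adjusted p were 0.012, 0.045, 0.010 and 0.018. SDHB was the least firm, since its other probe set stood at 0.12 and leaving out any 1 of 24 animals raised its adjusted p to between 0.050 and 0.075.

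In oxidative phosphorylation 14 of 54 measured genes fell and 1 rose, beside 2.68% lower and 3.65% higher among all probe sets tested. Below 0 were 48 of 54 differences, and the median was -0.17. NDUFA4, a subunit of the respiratory chain, ran from 13.31 to 14.58 with a median of 14.26 in the marker-high animals and from 14.28 to 14.93 with a median of 14.53 in the marker-low animals. It fell by 0.34 ± 0.08 (adjusted p = 0.0044), and 13 marker-high animals were below every marker-low animal. The complex I subunits NDUFS7 (-0.44 ± 0.10), NDUFA9 (-0.37 ± 0.09) and NDUFA10 (-0.29 ± 0.07) had adjusted p of 0.0047, 0.0087 and 0.0057. The gene that rose was COX6A1, the form of this cytochrome oxidase subunit found outside heart and muscle (0.45 ± 0.10, adjusted p = 0.0033).

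These mitochondrial differences were small and their calls depended on the setting, while the medians between the groups stayed below 0. For fatty acid oxidation, the citric acid cycle and oxidative phosphorylation, 4, 1 and 3 genes fell with EIF1AY as a covariate, 3, 0 and 1 without scaling of the arrays, and 0, 0 and 3 when SCD was left out of the score and the groups formed again. The medians in these 3 settings lay between -0.20 and -0.09. In labels 1 to 33 alone no gene of the 3 lists passed, and in labels 60 to 114 alone 5, 5 and 7 fell. Among the 26 animals in neither group none passed, and the median slopes on the score were -0.02, -0.006 and -0.07. Of those slopes 11 of 18, 9 of 18 and 34 of 54 were below 0, and those of SDHA, SDHB, IDH2 and DLST were above 0.

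**Figure D4:**
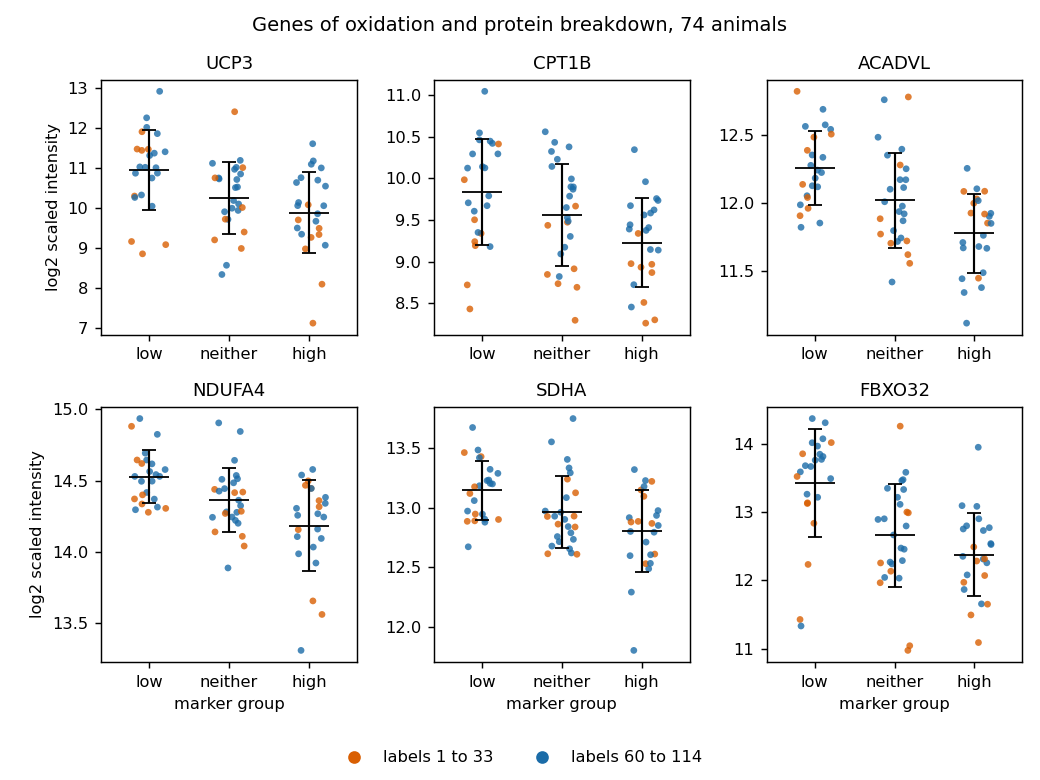
Log2 scaled intensity of 6 genes that were lower in the marker-high animals, in each of the 74 animals by marker group; colours give the block of label numbers, long bars the mean and short bars the SD. The differences are small beside those of the lipid genes, from -0.34 in NDUFA4 and SDHA to -1.07 in UCP3, and the groups overlap in every gene.

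Genes of fibre type and glycolysis rarely passed. None of 11 slow fibre and 8 fast fibre genes passed, with medians of -0.05 in both lists. Of 15 genes of glycolysis and glycogen 1 fell, UGP2, which makes the glucose donor of glycogen (-0.37 ± 0.11, adjusted p = 0.030, or 0.052 without animal 20), and its other probe set, at -0.32, did not pass. UGP2 did not pass with EIF1AY as a covariate (adjusted p = 0.064) or without scaling of the arrays (0.350). The 14 immediate early and heat shock genes, 7 glucocorticoid targets and 2 sex chromosome genes measured did not pass, with medians of 0.09, -0.06 and -0.11.

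Among the largest decreases was FBXO32, the muscle ubiquitin ligase atrogin-1 that marks proteins for breakdown. It had a median of 12.33 and a range of 11.09 to 13.95 in the marker-high animals and a median of 13.67 and a range of 11.33 to 14.37 in the marker-low animals, and fell by 1.05 ± 0.18 (adjusted p = 7.2e-05), with its other probe set at -1.17. MCRS1, a nucleolar and chromatin protein, fell by 1.07 ± 0.22, and MAOB, the mitochondrial monoamine oxidase, by 1.04 ± 0.22. The farnesyltransferase subunit FNTB fell by 0.91 ± 0.17, with its other probe set at -0.91, and the small heat shock protein of muscle HSPB7 fell by 0.84 ± 0.19. The adjusted p of these 4 were 0.0013, 0.0018, 3.0e-04 and 0.0047.

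The others of the 12 were TMEM140 (-0.75 ± 0.16), the phospholipase PLA1A (-0.70 ± 0.18), the clock factor ARNTL (-0.67 ± 0.18), the lipase ABHD4 (-0.67 ± 0.13), ARMC6 (-0.66 ± 0.17) and the muscle calpain CAPN3 (-0.65 ± 0.17), with adjusted p between 7.0e-04 and 0.018. The other probe set of CAPN3 stood at -0.19 and did not pass, nor did the other 2 of ARMC6, at -0.44 and -0.23. ARNTL and CAPN3 did not pass with EIF1AY as a covariate (adjusted p = 0.102 and 0.081) or without scaling (0.094 and 0.051).

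The blocks of label numbers were also compared on their own. Of the 141 genes named by rule 55 passed, 30 higher and 25 lower, and all 55 had the same sign in either block alone, which their choice from both blocks together favours. In labels 60 to 114 alone, 272 probe sets (2.27%) were higher and 204 (1.7%) lower, and in labels 1 to 33 alone 23 (0.192%) were higher and 0 (0.0%) lower by limma, with 988 at an unadjusted p under 0.05. Of the 272, 93.4% were also higher in the other block, against 53.8% of all probe sets, and 22 passed there. Of the 204, 87.7% were also lower, against 46.2% of all.

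FASN rose by 2.91 ± 0.46 in labels 1 to 33 and by 2.79 ± 0.29 in labels 60 to 114. APOE (2.90 against 1.24), RBP4 (2.68 against 1.01) and PCK1 (2.51 against 0.96) had larger differences in the lower labels, and MAOB (-0.37 against -1.38) and CAPN3 (-0.11 against -0.92) in the higher labels. A test of the difference between the blocks passed for 1 probe set with no gene name (0.00834% of those tested) and for none of the 55 genes, the smallest adjusted p being 0.575.

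**Figure D5:**
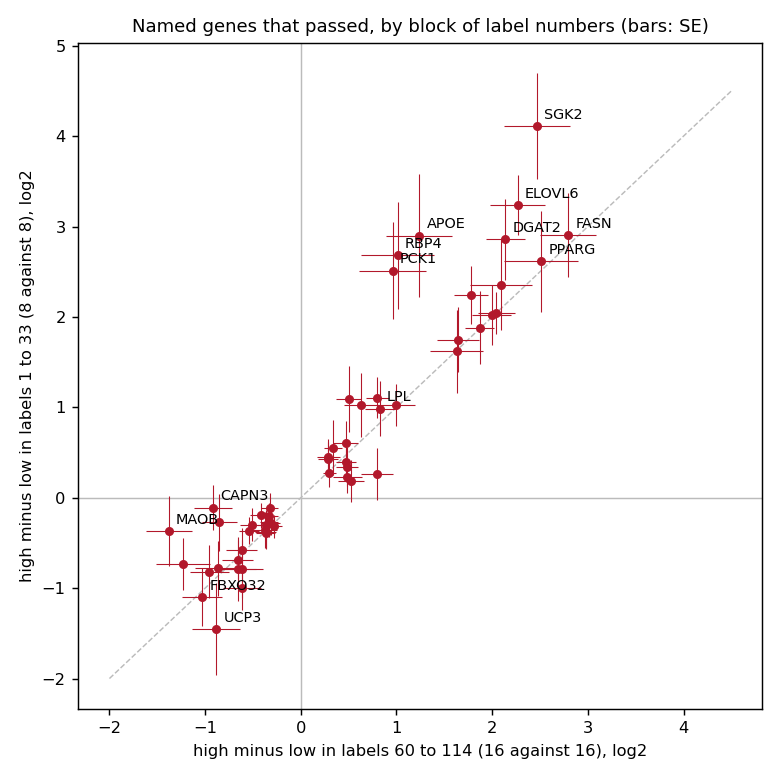
Log2 difference between marker-high and marker-low animals in labels 60 to 114 (x axis) and in labels 1 to 33 (y axis) for the 55 named genes that passed; bars are SE and the dashed line marks equal values. All points lie above 0 on both axes or below 0 on both axes.

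The 26 animals in neither group did not enter the comparison, and their score, used as a continuous variable, passed for no probe set (limma, smallest adjusted p = 0.151, 827 at an unadjusted p under 0.05). Of the 438 higher probe sets, 64.4% also rose with the score among them, against 51.7% of all probe sets. Of the 321 lower ones, 42.7% fell with it, against 48.3% of all. Of the 12 largest increases FASN, SGK2, LIPE and ELOVL6 had the steepest slopes, 2.11, 2.004, 1.98 and 1.62 per unit of the score. The others ran from 0.25 in CDO1 to 1.34 in DGAT2, with MGST1 at 0.42 and PPARG at 0.44. UCP3 and FBXO32 had slopes of 0.74 and 0.28, opposite to their direction between the groups.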

How the data were processed

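The authors deposited 1 table of linear intensity values, with 24123 probe sets and 74 arrays. Their methods name GCOS 1.1.1 with a target signal of 500, MAS5 present calls and PLIER. The sources used here do not say which of these made the values. Arrays, whose trimmed means (2% left out at each end) ran from 50.3 to 183, were brought to 500, values under 1 were set to 1, and log2 was taken. After 124 controls, the higher 11999 of 23999 probe sets by median (at least 139) were kept, and 11996 were tested without those of the score. Symbols come from the platform annotation, and several or none were given to 135 and 5483 kept probe sets.

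Groups were compared with limma 3.58.1 (R 4.3.3; block as a term; Benjamini-Hochberg; adjusted p under 0.05), and array measures by 100000 permutations within blocks (Python 3.11.15). On simulated data 99% of changes of 1 and 75% of 0.5 (log2) were recovered, with 12 false calls among 11996 probe sets. The simulated noise was independent for each probe set and animal, without sibs, genes that vary together or groups cut from a score. These numbers therefore do not give the false calls among the real results. The members, the gene lists and the tests were chosen with earlier results of these data known. Named genes are the 12 of the largest difference in each direction that passed, the genes of the 6 lipid lists, up to 5 genes of the smallest p in every other list, and the score genes. A gene is read by its probe set of the highest median. Arrays have no depth, and their number limits the precision.

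Alternatives were the values as deposited, quantile normalization, a pseudocount of 16, no filter, no block, each block alone, other divisions of the score, a score without each gene, array level or 3'-to-5' difference as a covariate, each animal left out, and, chosen after seeing the data, EIF1AY as a covariate and 3 arrays left out.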

Additional observations from a re-analysis of the deposited data

Results flagged for a closer look

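Of 11996 probe sets, Ssc.12423.1.A1_at, which has no gene name in the annotation, was the only one whose difference between the groups differed between the blocks of label numbers (limma, interaction of group and block, -1.30 on the log2 scale, labels 60 to 114 minus labels 1 to 33, adjusted p = 0.038; 871 probe sets had an unadjusted p under 0.05). It was higher in the marker-high animals of labels 1 to 33 (1.08 ± 0.23) and stood at -0.22 ± 0.13 in those of labels 60 to 114.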

How the results depend on the processing

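No paired analysis was possible because the animals form a single labelled group and each has 1 array. Higher and lower probe sets numbered 438 and 321. In labels 1 to 33 alone they were 23 and 0, in labels 60 to 114 alone 272 and 204, with all 74 animals divided into a higher and a lower group 241 and 77, with a continuous score over all 74 animals 903 and 621, over the 26 intermediate animals 0 and 0, without FABP4 220 and 86, without SCD 270 and 75, and with EIF1AY as a covariate 205 and 82. Lower probe sets numbered 53 as deposited, 170 with no filter, 163 without the block and 116 with 18 animals a side, where the higher ones stayed within 1.5 times. Quantile normalization, the pseudocount, the score without ADIPOQ, array level, 3'-to-5' difference and the 3 arrays moved neither count by over 1.5 times. Leaving out 1 animal gave 364 to 535 higher and 236 to 425 lower.

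Of the 55 named genes that passed, 17 changed sign, all among the 26 intermediate animals, where the slopes per unit of the score were SC5D -0.0859, PGD -0.0264, FAP -0.0170, COX6A1 -0.0284, LAMB1 -0.18, SDHB 0.0327, NDUFA10 0.0337, DLST 0.24, IDH2 0.0768, SDHA 0.30, NDUFA4 0.0744, CAPN3 0.28, ABHD4 0.35, PLA1A 0.49, TMEM140 0.25, FBXO32 0.28 and UCP3 0.74. The cause was not tested. Leaving out 1 animal ended the call of 6 of the 55, given above, and brought 6 others past the test, LUM (animal 73), FABP3 (108), SLC2A1 (26), ACSL1 (any of 6), MMP2 (any of 9) and IDH3G (any of 16). Calls held for 41 of the 55 in the values as deposited, 53 after quantile normalization, 30 without SCD and 40 with EIF1AY.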

Other observations

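The following genes were chosen after their values were seen. The 3 enzymes that make serine from a glycolytic intermediate were higher in the marker-high animals, PSAT1 by 1.13 ± 0.16, PHGDH by 0.80 ± 0.18 and PSPH by 0.48 ± 0.12 (limma, adjusted p = 1.8e-06, 0.0032 and 0.012). The pentose phosphate enzyme TKT (1.40 ± 0.16), pyruvate carboxylase PC (0.74 ± 0.12) and the peroxisomal thiolase ACAA1 (1.04 ± 0.14) were also higher, at adjusted p of 1.3e-08, 4.0e-05 and 2.6e-07. Angiotensinogen AGT (1.41 ± 0.21) and tissue factor F3 (1.38 ± 0.19) had adjusted p of 6.9e-06 and 1.0e-06.

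On the lower side 9 of 33 measured proteasome subunits and 7 of 58 mitochondrial ribosomal proteins fell and none rose, with medians of -0.15 and -0.08. These counts were not taken in the other settings. The subunits PSMD1 (-0.27 ± 0.06) and PSMD11 (-0.29 ± 0.09) did not pass without scaling of the arrays (limma, adjusted p = 0.261 and 0.340). With EIF1AY as a covariate PSMD1 passed (0.026) and PSMD11 did not (0.176). Of 59 cytosolic ribosomal proteins 2 rose and none fell, with a median of 0.07. Over all probe sets tested 3.65% rose and 2.68% fell.

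Ssc.31029.1.A1_at, a probe set with no gene name, stood at -2.89 ± 0.84 with an adjusted p of 0.028 over the probe sets kept by the filter, and did not pass over all probe sets that are not controls (adjusted p = 0.061). It had 2 separate levels, at most 6.46 in 34 animals and at least 8.49 in 40, and the lower level was found in 17 of 24 marker-high and 6 of 24 marker-low animals. It mirrored EIF1AY in 73 of 74 animals, and 1 animal was at the upper level of both.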
